A study of Mus musculus with 24 samples.

Results

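The core circadian clock loop was taken as 10 genes, chosen by symbol: Arntl (which encodes BMAL1), Clock, Npas2, Per1, Per2, Per3, Cry1, Cry2, Nr1d1 and Nr1d2. All 10 were found among the 25239 genes of the RNA tables, and their m6A sites numbered 51, 49 and 56 in the 3 site tables used. Liver RNA came from 12 C57BL/6 mice in 4 groups of 3: wild type at 8 weeks, ApoF gene knockout at 8 weeks, wild type at 28 weeks and ApoF gene knockout at 28 weeks. ApoF is an apolipoprotein made by the liver. From each mouse, RNA was sequenced before (input) and after immunoprecipitation (IP) for N6-methyladenosine, or m6A, a methylated base that marks many messenger RNAs, which gave 24 libraries. The study asked how loss of ApoF changes liver RNA and its m6A marks, and the tables hold 4 RNA comparisons: knockout against wild type at each age, and 28 against 8 weeks in each genotype. The sources used here do not say how the knockout was made.

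In the liver clock, BMAL1 pairs with CLOCK or with its relative NPAS2, binds E-boxes and drives transcription of the Per and Cry genes. PER and CRY proteins then gather in a complex that inhibits BMAL1 and CLOCK. The nuclear receptors REV-ERB alpha and REV-ERB beta, encoded by Nr1d1 and Nr1d2, form a second loop and repress Arntl through RORE elements. The RNA of most of these genes rises and falls over the day in mouse liver, and Arntl and Npas2 RNA peak at nearly the opposite time of day from Per RNA. The labels give no time of harvest, so group and time of day cannot be told apart for any value below.

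The promoter stretches that hold these elements are shown because the activators and repressors act on each other through them. RefSeq start-site windows (GRCm38.p6, 250 bases before to 50 after a start) were at hand for 9 of the 10 genes, in 13 windows, and 6 genes had a match to a searched motif. Both strands were searched for the E-box CACGTG, the E-prime box CACGTT or AACGTG, the D-box TTATGTAA or TTACATAA, the CRE TGACGTCA, and the RORE. The RORE match is the REV-ERB and ROR element, and the D-box is bound by the PAR bZIP factors DBP, TEF and HLF and by NFIL3. Capitals mark the match, and the flanks are in lower case.
Cry1 E-box, chr10:85185097-85185126, minus strand: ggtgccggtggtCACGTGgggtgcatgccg
Cry1 E-prime box, chr10:85185116-85185145, minus strand: acacacttcagaAACGTGaggtgccggtgg
Per1 E-box, chr11:69098771-69098800, plus strand: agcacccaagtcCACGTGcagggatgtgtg
Per3 D-box, chr4:151044851-151044882, minus strand: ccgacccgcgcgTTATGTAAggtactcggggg
Per3 D-box, chr4:151044804-151044835, minus strand: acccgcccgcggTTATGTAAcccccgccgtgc
Arntl RORE, chr7:113207528-113207556, plus strand: ggaaggcagAAAGTAGGTCAgggacggag
The Cry1 E-box lay 60 bases before the start, the Per1 E-box 166 bases before it, and the Arntl RORE 27 bases after it. The Per3 window held 2 D-boxes, 205 and 158 bases before the start, a motif found in 0.938% of the 32851 windows of all genes. The E-box was found in 7.15% of windows, the E-prime box in 4.68%, the CRE in 1.79% and the RORE in 0.384%. Cry2 and Nr1d1 each had an E-prime box. A match is a description of the letters only.

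Facts of the whole series that touch the clock genes are these. Apof RNA was lower in both knockout groups but still present: group means were 23453.6 in wild type and 14413.9 normalized counts in the knockout at 8 weeks, a log2 ratio of -0.70 ± 0.11 (SE), and the ratio at 28 weeks was -1.01 ± 0.16, in the authors' deposited tables. Whether the counted reads cover the deleted stretch is not known. The 8-week wild-type group had almost no Y-linked RNA, with Ddx3y at 0.178 normalized counts against 2337.8 in the 8-week knockout, and its Xist mean was 21016.8 against 10192.3, as implied by the authors' deposited table. At 28 weeks the wild-type and knockout means were 2232.1 and 2189.4 for Ddx3y and 8746.7 and 8902.8 for Xist, so the 8-week wild-type group stood apart on both measures. That group enters the 8-week comparison, the wild-type age comparison and the interaction. Xist with almost no Y-linked RNA is the pattern of female liver, so sex cannot be told apart from genotype or age in those comparisons. The other groups held both Y-linked RNA and Xist. There the SE of the Ddx3y log2 ratio was wide, 2.28 between genotypes at 28 weeks and 2.66 with age in the knockout. A mix of males and females would hold both, but values per animal are not in the tables used, so this was not tested. Some markers of other cell types were called in each of the 4 RNA comparisons. Of all tested genes, 4.98% were called between genotypes at 8 weeks and 0.257% at 28 weeks. With age 4.24% were called in wild type and 4.49% in the knockout. The summed level of stellate cell and fibroblast markers was 18410.9 in wild type and 29120.8 in the knockout at 8 weeks, with 3 of 9 tested markers higher and 1 lower. The 3 higher ones were collagen genes, with Col3a1 at 2307.2 and 10686.9, and the list median was -0.07 on the log2 scale. At 28 weeks the sum was 13209.5 and 11565.0, with 0 of 10 called by DESeq2 and 1 at an unadjusted p under 0.05, beside 4.8% of all genes. Sinusoidal endothelial markers summed to 19879.8 in wild type and 14600.6 in the knockout at 28 weeks, with 2 of 10 lower. Erythroid and neutrophil markers summed to 3590.5 in wild type and 12807.5 in the knockout at 8 weeks, with 2 of 6 tested higher. Between the wild-type ages they summed to 3384.6 and 6555.9, with 1 of 4 higher. That marker was Alas2, from 544.0 to 4378.9, and the list median was 0.03 on the log2 scale. In the same comparison 1 of 6 cholangiocyte markers, Sox9, was higher. With age in the knockout, 5 of 9 stellate cell and fibroblast markers were lower (27814.2 to 12240.8) and 3 of 10 endothelial ones (19504.7 to 15457.2). Of 14 tested hepatocyte markers, 2 were higher at 8 weeks (summed level 5646888.9 in wild type and 7730553.1 in the knockout, list median 0.12 on the log2 scale). The part of these differences in the clock values was not tested. In whole liver, fewer cells of a type and less RNA per cell cannot be told apart.

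Levels below are group means in normalized counts, worked out from the mean and the ratio that a table gives. Values per animal are not in the tables used, so their spread, and whether animals of different groups overlap, are not known. The SE given is the error of the log2 ratio between group means. Ratios above 0 stand for more RNA in the knockout or at the later age. A gene was called when the authors' deposited adjusted p was under 0.05. The levels are not scaled by gene length, so they are compared between groups and not between genes.

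In wild-type liver some activators and repressors of the clock loop differed between ages, in opposite directions. The activators Clock and Npas2 rose and the repressors Per2 and Per3 fell at 28 weeks, while Arntl and Per1 did not pass, so 4 of 10 genes were called, where 4.24% of all 13474 tested genes were. At an unadjusted p under 0.05 there were 6 of 10, with Arntl and Per1 added, against 11.7% of all genes. The median log2 ratio over the 10 genes was -0.34 beside -0.01 over all tested genes, a value that hides the opposed directions. In the knockout none of the 10 was called between 28 and 8 weeks by the authors' DESeq2 test, where 4.49% of tested genes were, and 1 gene, Npas2, had an unadjusted p under 0.05, against 13.3% of all genes.

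**Figure D1:**
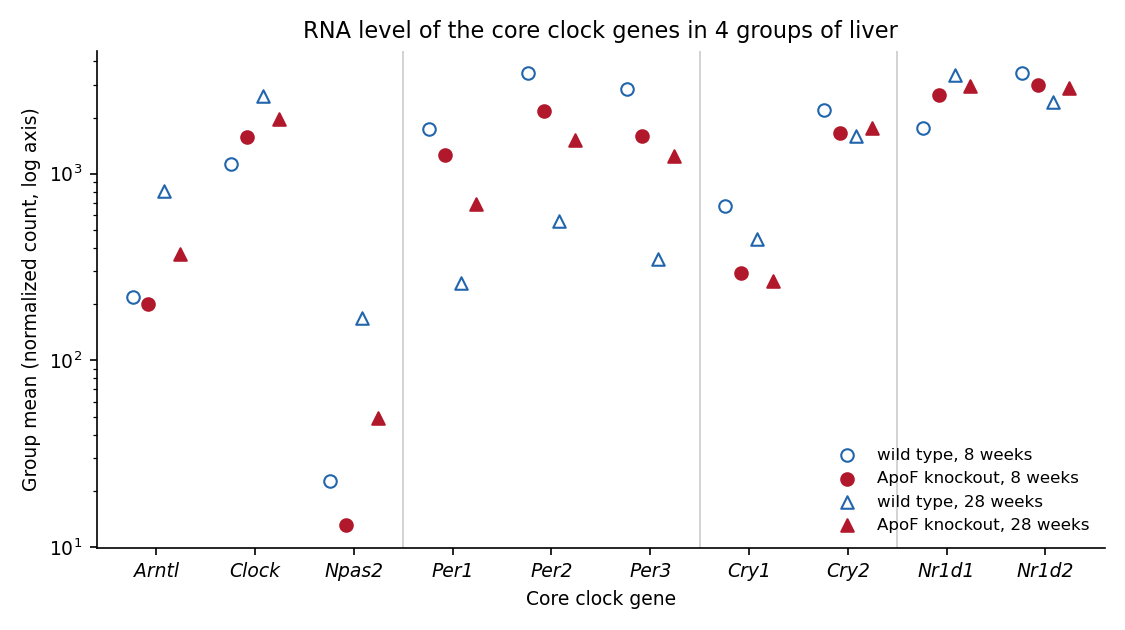
Group mean of each core clock gene in normalized counts (log axis), in wild type (open) and ApoF knockout (filled) at 8 weeks (circles) and 28 weeks (triangles); means are implied by the authors' tables and carry no error bars. In wild type the Per genes are highest at 8 weeks and lowest at 28 weeks (Per2, 3445.7 and 560.5), and the knockout means lie between them, while Npas2 runs from 13.1 in the 8-week knockout to 169.6 in the 28-week wild type.

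Among the activators, Npas2 had the widest range of levels of all 10 genes. Its group means were 22.6 in wild type and 13.1 in the knockout at 8 weeks, and 169.6 and 49.0 at 28 weeks, a 13.0-fold span from the lowest to the highest group. In wild type Npas2 rose with age by 3.06 ± 0.86 on the log2 scale (adjusted p = 0.0145, authors' deposited table). The other ratios did not pass: 2.06 ± 0.94 with age in the knockout (adjusted p = 0.24) and -1.79 ± 0.55 in the knockout at 28 weeks (adjusted p = 0.2), both in the authors' deposited tables. At these low counts the 8-week genotype ratio was imprecise, at -0.79 ± 1.29 in the authors' deposited table.

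Clock, whose protein NPAS2 can stand in for, had means of 1130.1 and 1579.4 at 8 weeks and 2600.3 and 1953.3 at 28 weeks in wild type and knockout. The rise with age in wild type was 1.35 ± 0.27 on the log2 scale, a 2.56-fold difference (adjusted p = 0.000113, authors' deposited table). In the knockout the same age ratio was 0.45 ± 0.24 (adjusted p = 0.352, authors' deposited table). The genotype ratio was 0.48 ± 0.31 at 8 weeks and -0.41 ± 0.19 at 28 weeks, with adjusted p = 0.462 and 0.783 in the authors' deposited tables. Wild-type liver thus held both the lowest and the highest Clock mean, with the knockout means between them.

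Arntl, which encodes the common partner of CLOCK and NPAS2, was not called in any comparison. Its means were 218.0 and 201.7 at 8 weeks and 803.6 and 373.7 at 28 weeks in wild type and knockout. The age ratio was 2.03 ± 0.84 in wild type and 1.04 ± 0.54 in the knockout, with adjusted p = 0.179 and 0.327 in the authors' deposited tables. At 28 weeks the genotype ratio was -1.10 ± 0.50 (adjusted p = 0.723, authors' deposited table). The Arntl SE in the wild-type age table was larger than that of 98.9% of genes of like mean.

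The 3 Per genes, whose proteins hold the repressor complex together, shared an order of group means: wild type at 8 weeks, knockout at 8 weeks, knockout at 28 weeks, wild type at 28 weeks. Per2 means in that order were 3445.7, 2175.7, 1516.9 and 560.5. Of the neighbours in that order, the first pair (log2 ratio -0.66 ± 0.48, adjusted p = 0.534) and the middle pair (-0.37 ± 0.32, adjusted p = 0.67) did not pass in the authors' deposited tables. The last pair did: at 28 weeks Per2 was higher in the knockout by 1.44 ± 0.34 on the log2 scale, a 2.71-fold difference (adjusted p = 0.0174, authors' deposited table). Between the ends of the order, Per2 fell with age in wild type by 2.47 ± 0.68 on the log2 scale (adjusted p = 0.012, authors' deposited table).

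Per3, the member of the family with the weakest known part in keeping rhythm in mice, had the largest difference between its highest and lowest group among the Per genes, 8.1-fold. The means were 2834.0, 1597.5, 1247.9 and 350.0 in the same order. The fall with age in wild type was called at -2.87 ± 0.73 (adjusted p = 0.00458, authors' deposited table). At 28 weeks the genotype ratio was larger than that of Per2 but far less precise, 1.83 ± 0.98 (adjusted p = 0.92, authors' deposited table).

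Per1, which responds within hours to hormones and cyclic AMP as well as to the clock, had means of 1734.2, 1258.7, 687.3 and 258.9 in that order. Its age ratio in wild type was -2.59 ± 1.16 and its genotype ratio at 28 weeks 1.41 ± 0.63, with adjusted p = 0.239 and 0.718 in the authors' deposited tables. The Per1 SE exceeded that of 98.0% to 99.6% of genes of like mean in the 4 comparisons. The Per1 ratios were thus imprecise for a gene of this level and, though close in size to those of Per2, did not pass.

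**Figure D2:**
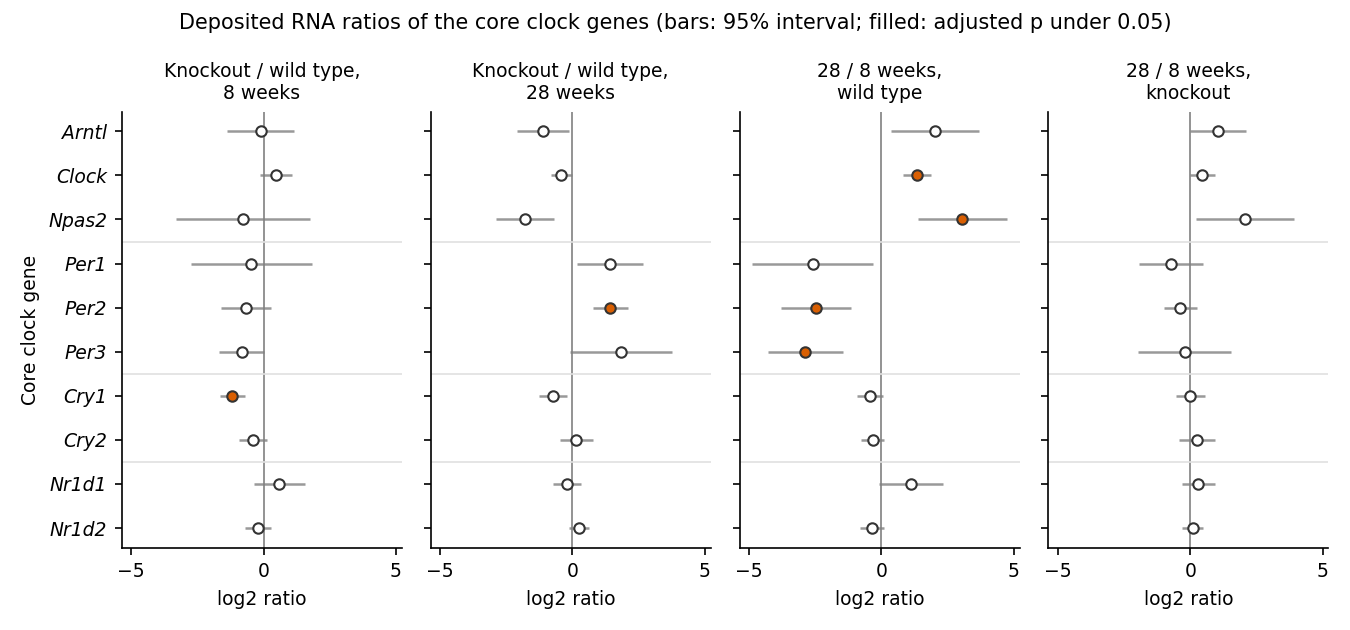
Deposited log2 ratio of each core clock gene with its 95% interval in the 4 RNA comparisons; filled points have an adjusted p under 0.05. The 4 filled points in the wild-type age panel (Clock 1.35, Npas2 3.06, Per2 -2.47, Per3 -2.87) face open points nearer 0 in the knockout age panel, where none passed.

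Between genotypes, 1 of the 10 genes was called at each age, and not the same gene. At 8 weeks it was Cry1, where 4.98% of 15214 tested genes were called; 8 of the 10 genes had a ratio below 0, and the median of the 10 was -0.44 beside 0.01 over all tested genes. Cry1 was also the sole gene of the 10 with an unadjusted p under 0.05 at 8 weeks, where 14.2% of all genes had one. At 28 weeks it was Per2, where 0.257% of tested genes were called. At an unadjusted p under 0.05 the 28-week count was 6 of 10 (Arntl, Clock, Npas2, Per1, Per2 and Cry1) against 4.8% of all genes. Of those 6, the 3 activators and Cry1 had ratios below 0, and Per1 and Per2 had ratios above 0.

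Cry1, the stronger of the CRY repressors of CLOCK and BMAL1, did not follow the Per genes. Its means were 670.0 in wild type and 295.7 in the knockout at 8 weeks, and 445.1 and 267.9 at 28 weeks. At 8 weeks Cry1 fell in the knockout by 1.18 ± 0.24 on the log2 scale, 2.27-fold (adjusted p = 0.000138, authors' deposited table). The 28-week ratio was -0.73 ± 0.28, with an unadjusted p of 0.00804 and an adjusted p of 0.465 in the authors' deposited table. The 28-week minus 8-week difference of those ratios was 0.45 ± 0.37 (95% interval -0.27 to 1.17), adjusted p = 0.8 in the Wald test over all genes, and a missed threshold does not show that the ages were alike. With age the Cry1 ratio was -0.44 ± 0.25 in wild type and 0.01 ± 0.27 in the knockout, neither called in the authors' deposited tables.

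Cry2, the other CRY repressor, and the REV-ERB genes were called in none of the 4 comparisons. Cry2 means were 2202.0 and 1658.7 at 8 weeks and 1589.7 and 1766.4 at 28 weeks, a span of 1.39-fold. Nr1d2, which encodes REV-ERB beta, spanned 1.43-fold, from 2416.4 in the 28-week wild type to 3449.7 in the 8-week wild type. Nr1d1, which encodes REV-ERB alpha, was lowest in the 8-week wild type at 1750.7 and highest in the 28-week wild type at 3400.0, with an age ratio of 1.11 ± 0.62 (adjusted p = 0.408, authors' deposited table). Its knockout means were 2640.1 and 2954.4. Nr1d1 thus leaned the way Arntl did between the wild-type ages, without passing the test.

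The genotype ratio was compared between ages gene by gene, from libraries of separate animals. Per2 changed the most certainly: its ratio moved from -0.66 at 8 weeks to 1.44 at 28 weeks, a difference of 2.10 ± 0.59 (95% interval 0.95 to 3.25, adjusted p = 0.0337, Wald test over 17139 genes). It was 1 of 10 genes called, against 1.25% of all genes, and 3 of 10 had an unadjusted p under 0.05 (Clock, Per2 and Per3) against 10.3%. Per3 differed by 2.66 ± 1.08 (adjusted p = 0.264, the same test) and Clock by -0.90 ± 0.37 (adjusted p = 0.272, the same test). Built from the 2 age tables instead, with the SEs of those fits, the Per2 difference was 2.09 ± 0.75 and its call was lost (adjusted p = 0.175).

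**Figure D3:**
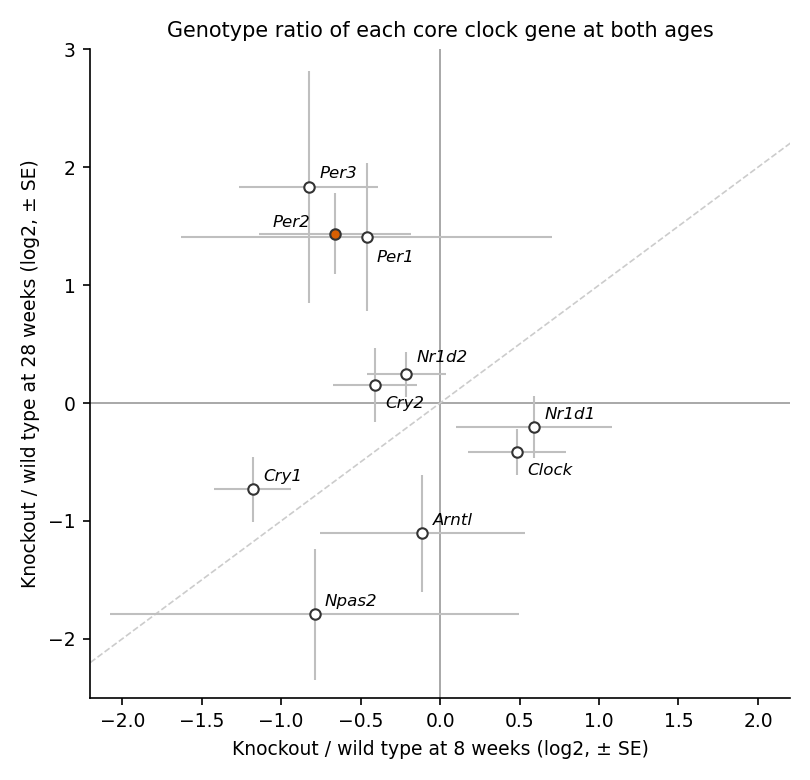
Log2 knockout over wild type ratio at 8 weeks (x axis) and 28 weeks (y axis) of each core clock gene, ± SE on both axes; the dashed line marks equal ratios, and the filled point is the gene whose difference passed. The Per genes sit at upper left (Per2 at -0.66 and 1.44), Cry1 lies below 0 on both axes (-1.18 and -0.73), and the 3 activators lie below 0 at 28 weeks.

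Genes known to be driven by the loop were also compared. Of 19 tested clock output and PAR bZIP genes, 9 fell, 0 rose and 10 did not pass at 28 weeks in wild type, where 4.24% of all tested genes were called in either direction, with a list median of -1.20 beside -0.01 over all genes. Dbp, the PAR bZIP factor that binds D-boxes and a direct CLOCK target, fell from 4735.0 to 993.3, by 2.25 ± 0.43 on the log2 scale (adjusted p = 3.23e-05, authors' deposited table). Usp2, a clock-driven deubiquitinase, fell from 964.7 to 57.4, Por, the electron donor of P450 enzymes, from 37091.1 to 11603.5, and Wee1, a cell cycle kinase, from 446.7 to 108.1; all 3 were called in the authors' deposited table. In the knockout the same list had 2 genes higher (Bhlhe41 and Nfil3) and 1 lower (Tspan4) at 28 weeks, with a median of 0.13. Of all tested genes 4.49% were called there. Between genotypes 3 genes fell at 8 weeks (Lonrf3, Por and Nfil3, median -0.59), where 4.98% of all tested genes were called. At 28 weeks, where 0.257% were called, 1 gene rose (median 0.53). That gene was Noct, a rhythmic phosphatase of the deadenylase family, at 200.9 in wild type and 2350.2 in the knockout, a log2 ratio of 3.55 ± 0.85 (adjusted p = 0.0178, authors' deposited table). The genotype ratio differed between ages for 3 of the 19, Usp2, Lonrf3 and Noct, where 1.25% of all genes were called. Each had a higher ratio at 28 weeks (list median 1.35).

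Genes whose products modify or degrade clock proteins were called at shares near those of all genes at 8 weeks (1 of 25 beside 4.98%). At 28 weeks 1 of 25 was called, beside 0.257%. Of the 25 tested, Csnk1e, the casein kinase 1 epsilon that phosphorylates PER proteins, was the sole gene called between genotypes, and it fell at both ages. Its means were 425.4 and 160.0 at 8 weeks (log2 ratio -1.41 ± 0.44, adjusted p = 0.03) and 401.4 and 144.1 at 28 weeks (-1.48 ± 0.33, adjusted p = 0.008), in the authors' deposited tables. With age in the knockout and for the interaction, 0 of 25 were called, with 3 and 1 at an unadjusted p under 0.05. The shares of all genes were 4.49% and 1.25% called, and 13.3% and 10.3% at an unadjusted p under 0.05.

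Cues that act on the liver clock from outside include body temperature, hormones and feeding. Of 14 tested temperature and systemic cue genes, 6 fell and 1 rose with age in wild type, beside 4.24% of all tested genes called; Hspa8, a heat shock cognate chaperone, fell from 86297.9 to 35868.1, by 1.27 ± 0.12 on the log2 scale (adjusted p = 3.47e-23, authors' deposited table). The one that rose was Klf9, a glucocorticoid-induced factor, from 2840.2 to 5339.8. At 8 weeks 3 chaperone genes were lower in the knockout (Dnajb1, Hspa8 and Hsph1), beside 4.98% of all tested genes called. At 28 weeks 0 of 12 were called by DESeq2, with 1 at an unadjusted p under 0.05, beside 0.257% and 4.8% of all genes. Sgk1, a kinase induced by glucocorticoids, fell with age in both genotypes. The fall was 0.84 ± 0.25 on the log2 scale in wild type and 1.16 ± 0.36 in the knockout, both called in the authors' deposited tables. In the knockout Sgk1 was the sole gene called of 13 tested, beside 4.49% of all tested genes. Hspa8 was the sole gene of the 14 tested called for the interaction, beside 1.25% of all genes, with a difference of 1.33 ± 0.31.

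Of 16 tested feeding state genes, 3 were called between genotypes at 8 weeks, beside 4.98% of all tested genes: Asns and Insig2 were higher, and Ppp1r3g, a glycogen-targeting phosphatase subunit, fell from 288.5 to 17.3. With age Insig2, which restrains sterol synthesis, rose in wild type from 2007.3 to 6371.0, and Igfbp1, a gene raised by fasting, fell in the knockout from 3341.9 to 662.7. Each was the sole gene of the list called in that comparison. Tested were 14 in wild type and 16 in the knockout, where 4.24% and 4.49% of all tested genes were called. At 28 weeks 0 of 15 were called between genotypes, and 0 of 16 for the interaction, with 1 and 5 at an unadjusted p under 0.05. Of all genes 0.257% and 1.25% were called, and 4.8% and 10.3% had an unadjusted p under 0.05. The part of these cue genes in the clock values was not tested.

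The genes whose 4 group means ran most like those of a called clock gene were found by distance between centred log2 means over 10923 genes. For Per2 the nearest were Per1 (distance 0.278 log2 units), Vldlr and Alas1, and for Per3 they were Per2 (0.326), Cyp2a22 and Per1. The nearest to Npas2 was Arntl (1.23), then Cyp26b1 and Nox4. Clock was nearest to Sox9 (0.0671), a marker of bile duct cells, Mrnip and Etfbkmt, and Cry1 to Ier2 (0.122), Zbtb16 and Atp6v0c. With 4 group means such a likeness is a description.

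The m6A sites were next compared. Each listed site had reads summed by the authors over a group's IP and over its input libraries, and a deposited log2 ratio of IP over input between the groups. Sites were called at an adjusted p under 0.05, and the sources used here give no coordinates for them. How the authors' site test treats differences between mice is not known here. At a called Per2 site between the wild-type ages the authors' p was 5.36e-12. A Wald test with counting error of the summed reads only gave 3.84e-13. Site p-values are thus not read as a measure of the spread between mice. Per2, Per3 and Clock carried many sites, with 9 each in the 8-week table, more than 92.3% of genes with sites. Npas2 and Cry1 had none listed at 8 weeks, and Cry1 had a single site, at 28 weeks.

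At 8 weeks 8 member sites were called of the 34 with an adjusted p, where 10.9% of all 25727 such sites were. The called sites higher in the knockout numbered 7, and those lower numbered 1, while 50.4% of all called sites were higher. Per2 held 3 of the 7. At the site with the smallest p, wild type had 301 IP and 458 input reads and the knockout 589 and 505, so IP over input went from 0.657 to 1.17, with a deposited log2 ratio of 0.62 (adjusted p = 0.000205, authors' deposited table). Another had 270 IP and 311 input reads in wild type and 517 and 348 in the knockout (0.56, adjusted p = 0.00521, authors' deposited table). The other had 1749 and 1957 against 1545 and 1243, where IP reads fell less than input reads (0.26, adjusted p = 0.00477, authors' deposited table).

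Nr1d2 held 2 called sites, with log2 ratios of 0.21 and 0.38 in the authors' deposited table. Per1 had 1 called site, its sole site at 8 weeks, with 307 IP and 361 input reads in wild type and 336 and 245 in the knockout (0.47, adjusted p = 0.0414, authors' deposited table). Per3 had 1, which rested on few reads, 80 and 141 in wild type and 72 and 56 in the knockout (0.93, adjusted p = 0.0411, authors' deposited table). The lower site was in Clock, with 901 and 726 reads in wild type and 1161 and 990 in the knockout (-0.30, adjusted p = 0.0225, authors' deposited table). Recomputed from the summed reads, the Clock call was lost (adjusted p = 0.208). Per genes and Nr1d2, whose input reads summed over sites were lower in the knockout, had the higher sites, and Clock, whose summed input reads were higher, the lower one. At the called Per2 sites with 458 and 311 input reads in wild type, however, input was not lower in the knockout (505 and 348).

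At 28 weeks 1 site was called of 19 with an adjusted p, where 9.18% of 18751 sites were. It lay in Cry2, with 1325 IP and 760 input reads in wild type and 1438 and 1044 in the knockout (-0.30, adjusted p = 0.0093, authors' deposited table), and the call was lost when recomputed from the summed reads (adjusted p = 0.0585). Of the 11 Per2 sites, 4 had an adjusted p and none of those 4 was called by the authors' test. The log2 ratios of the 11 ran from -0.36 to 0.71 in the authors' deposited table.

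Between the wild-type ages 4 sites were called of 26 with an adjusted p, where 11.3% of 20628 sites were. The 3 higher at 28 weeks were 2 in Per2 (log2 ratios 0.90 and 0.51, adjusted p = 4.14e-10 and 0.0107, authors' deposited table) and 1 in Per3 (0.50, adjusted p = 0.0385, authors' deposited table), while 80.4% of all called sites were higher. The lower one was in Nr1d1 (-0.25, adjusted p = 0.0113, authors' deposited table). Recomputed from the summed reads, the Per3 and Nr1d1 calls were lost (adjusted p = 0.0919 and 0.0999). All 12 Per3 sites had a ratio above 0, and all 7 Arntl and all 3 Npas2 sites had one below 0, most of them without an adjusted p. Of all sites, 57.6% had a ratio above 0. Sites of a gene share its transcripts, and some rest on few reads. A Per3 site had 3 input reads at 28 weeks and an Npas2 site 3 at 8 weeks.

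**Figure D4:**
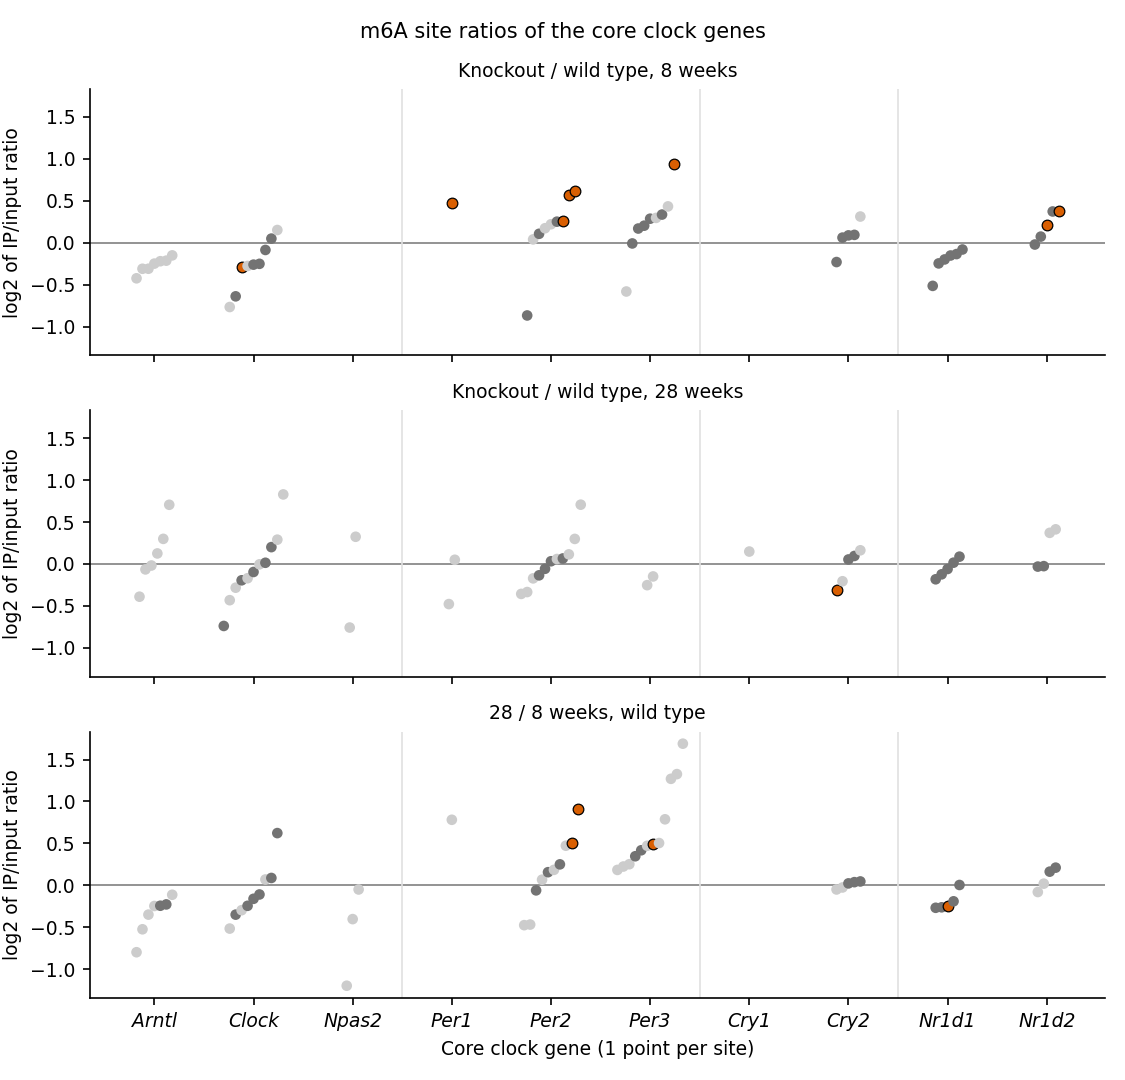
Deposited log2 ratio of IP over input at each m6A site of the core clock genes in 3 comparisons; orange points have an adjusted p under 0.05, dark grey points do not, and light grey points have no adjusted p. In the 8-week panel the called sites of Per1, Per2, Per3 and Nr1d2 lie above 0 and that of Clock below, and in the wild-type age panel every Per3 site is above 0 and every Arntl site below.

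The direction of the site ratio was often opposite to that of the gene's RNA. Between the wild-type ages 46 of 56 member sites (82.1%) had opposite signs, beside 54.2% of sites in all genes and 60.5% of sites in genes whose RNA ratio was at least 1 log2 unit either way. At 8 weeks it was 37 of 51 (72.5%, beside 52.8% in all genes), and at 28 weeks 23 of 49 (46.9%, beside 51.8%). Input reads enter both the RNA ratio and the denominator of the site ratio, and sites of a gene share its transcripts, so these shares are a description with no test.

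Input reads at the sites also served to look at RNA along a gene. In Per2 the sites fell into separate sets between the wild-type ages. At 7 of 10 sites input reads fell from 3837 to 647 in sum, a scaled log2 ratio of -2.60 that lies beside the RNA ratio of -2.47, and each of these sites lay between -2.77 and -2.27. At the other 3 the sum was 1646 at 8 weeks and 1666 at 28 weeks, a scaled log2 ratio of -0.01. Single sites of that set had 458 and 599, 311 and 409, and 877 and 658 input reads at 8 and 28 weeks.

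The same split appeared between genotypes at 28 weeks. At 7 of 11 Per2 sites input reads rose from 693 in wild type to 1964 in the knockout, a scaled log2 ratio of 1.44, equal at this rounding to the deposited RNA ratio. At the other 4 the sums were 1686 and 1774, a scaled log2 ratio of 0.01. These 3 and 4 sites were those whose input ratio lay at least 1 log2 unit from the gene's RNA ratio, a limit set after the values were seen. Of sites with at least 50 input reads in both groups, 1.24% of 37409 in all genes lay that far off between the wild-type ages and 0.916% of 38007 between genotypes at 28 weeks. Among members they were 3 of 38 and 4 of 38, all in Per2, and at 8 weeks, where the Per2 RNA ratio was smaller, 0 of 44. The shares over all genes take in genes with RNA ratios too small for a site with unchanged input reads to reach the limit. Those shares are thus no like background for Per2.

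**Figure D5:**
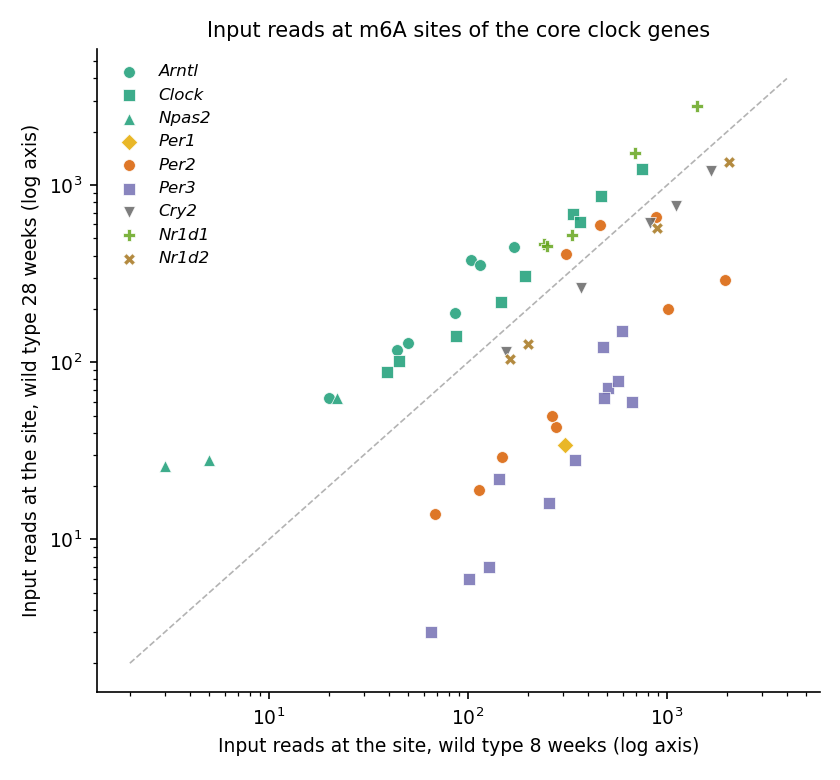
Input reads at each m6A site of the core clock genes in wild type at 8 weeks (x axis) and 28 weeks (y axis), summed over the libraries of a group, on log axes; the dashed line marks equal reads. Sites of Arntl, Clock and Npas2 lie above the line and those of Per1 and Per3 far below it, while Per2 has 7 sites below the line and 3 near it.

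Of the 3 Per2 sites called at 8 weeks, 2 belong to that set, and both could be followed through all 4 groups. At one, input reads were 458 and 505 in wild type and knockout at 8 weeks and 599 and 632 at 28 weeks, while IP reads were 301, 589, 914 and 854 in that order. IP over input was 0.657, 1.17, 1.53 and 1.35, lowest in the 8-week wild type. The other had 0.868, 1.49, 1.53 and 1.43. Both were lowest in the 8-week wild type, as chosen by their 8-week call. These ratios are not scaled, and over all listed sites IP over input was 0.985, 1.08, 1.17 and 1.12 in the same order, also lowest in that group. In all, 11 member sites in 7 genes could be matched across the 3 tables by their shared wild-type sums, and 8 of the 11 were lowest in the 8-week wild type. At the matched Per3 site IP over input ran 0.927, 1.22, 1.58 and 1.37, in the same order of groups, with input reads of 592, 460, 151 and 435.

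RefSeq (GRCm38.p6) places the long noncoding RNA Gm35591 (chr1:91443003-91457770) inside the Per2 gene (chr1:91415977-91459351), over 34.0% of its span. The libraries were stranded, per the labels, and whether the authors' counting used strand is not stated. Whether these Per2 sites carry reads of another transcript was not tested. Over all Per2 sites the scaled log2 ratio of input reads was -1.28 between the wild-type ages and 0.59 between genotypes at 28 weeks, smaller than the RNA ratios. The sites were set apart by their distance from the RNA ratio, so the likeness of the remaining sites to it follows from that choice. Cry2 overlaps the noncoding D930015M05Rik over 76.9% of its span and Nr1d1 overlaps Thra over 14.4%. No site of either gene lay at least 1 log2 unit from its RNA ratio. The Cry2 RNA ratios (-0.41, 0.15 and -0.32) and the Nr1d1 genotype ratios (0.59 and -0.20) were themselves smaller than that limit. A site with unchanged input reads could not reach the limit in those comparisons, so its absence there says nothing about overlap.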

How the data were processed

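HISAT2, StringTie and DESeq are named, with no version, per the submitters' processing notes. The genome build and the m6A site caller were not given in the sources used here. Each RNA table holds the authors' DESeq2 results for 3 against 3 input libraries. Its mean signal is the authors' mean count divided by DESeq2 size factors over the libraries compared. The log2 ratio, its SE, the Wald score, the p-value and the adjusted p are as deposited by the authors. Site counts are reads that the authors pooled over the libraries of a group and did not normalize, per the file headers. The site tables' log2 ratio, p-value and adjusted p are likewise the authors' own. Libraries carried unique molecular identifiers, per the labels. Depth per library is not known here: the RNA tables' normalized means add up to 39824284.7 to 41989204.5, and a group's reads over all listed sites to 72868528 to 90420947 for each library type. Precision is given by the deposited SE.

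The numerator of the ratios is not stated. Signs were settled from whole tables: the same wild-type sums recurred in a second table at 21900 (8 weeks) and 22361 (28 weeks) sites, where other column pairs shared 31 to 56, and the input read ratio correlated with the deposited RNA ratio across genes, which are not independent replicates, at a Pearson r of -0.821, -0.73 and -0.873 over 11342, 11192 and 11080 genes. Around the loop of 4 RNA contrasts the median absolute residual was 0.00357 (13383 genes) with this sign for the knockout age table and 0.482 with the other. RNA signs were turned and site signs kept.

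Group means follow from a table's mean and ratio with equal group sizes; levels come from the 2 genotype tables, and values beside age comparisons of other genes from the age tables. Each group enters 2 RNA tables, so the comparisons are not independent. The interaction is the 28-week minus the 8-week genotype ratio, with its SE from both deposited SEs, a two-sided Wald p and Benjamini-Hochberg adjustment. Input ratios at sites were scaled by the reads summed over all listed sites. For likeness, genes with a mean of at least 100 and the 3 nearest were kept. The site table of the knockout ages could not be matched to the groups and is not used here. Members and gene lists were chosen with earlier results of these data known. Named were all members and sites, and up to 4 called genes with the smallest adjusted p per list and comparison, and the 3 nearest genes of each called member; Klf9 and the Per2 site sets were named after their values were seen. A result that the rule named is not reported here. The interaction and site tests were tested on simulated data. Animals are numbered in the labels, so replicates are separate mice. Alternatives were other adjusted p limits, other adjustment sets, a minimum mean of 10, the age tables for the interaction, at least 50 input reads, input reads in place of the RNA ratio, and site tests recomputed from summed reads with 0.5 added. Software was Python 3.11.15 with matplotlib 3.10.9, scipy 1.17.1, pandas 2.3.3 and numpy 2.4.6.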

Additional observations from a re-analysis of the deposited data

Results flagged for a closer look

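The effect of the knockout on Per2 RNA differed between ages by a test of the difference itself: the log2 genotype ratio was 2.10 higher at 28 than at 8 weeks (SE 0.59, adjusted p = 0.0337, Wald test over all genes). Built from the 2 age tables, the difference was 2.09 ± 0.75 and did not pass (adjusted p = 0.175). The ratio was -0.66 at 8 weeks and 1.44 at 28 weeks, in the authors' deposited tables. The 8-week wild-type group, with nearly no Y-linked RNA, enters this difference, and the time of harvest is not given; the part of either in it was not tested.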

How the results depend on the processing

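Counts of called core clock genes were the same when p-values were adjusted over all genes with a p or over genes with a mean of at least 10, and under an adjusted p limit of 0.1. Under a limit of 0.01 the 28-week genotype count went from 1 to 0, the wild-type age count from 4 to 2 and the interaction count from 1 to 0. Built from the age tables the interaction count was 0, since the SEs of those fits are larger for Per2. For m6A, a limit of 0.01 gave 5 sites at 8 weeks and 1 between the wild-type ages, and a limit of 0.1 gave 2 at 28 weeks. Recomputed from summed reads, with counting error only, the counts were 0 at 28 weeks and 2 between the wild-type ages, and all called sites kept their sign. With at least 50 input reads they were 6, 1 and 3. Input reads summed over sites gave ratios within 1 SE of the RNA ratio in 20 of 27 cases, and no called gene changed sign. Most called ratios were among those that moved by more than 1 SE, each toward 0. Between the wild-type ages Clock went from 1.35 to 0.78, Npas2 from 3.06 to 1.93 and Per2 from -2.47 to -1.28. The 28-week genotype ratio of Per2 went from 1.44 to 0.59. Per3 stayed within 1 SE between the wild-type ages, and Cry1 had no site at 8 weeks. The scaling of input reads moved the median of all genes by -0.22 on the log2 scale between the wild-type ages. No paired analysis was possible because values per library are not in the tables used, so animal numbers link no values, and leaving out a replicate was not run for the same reason. Depth limits Npas2, with group means down to 13.1, and sites such as the called Per3 site with 56 input reads.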
